A study of Mus musculus with 23 samples.

Results

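The nuclear genes of respiratory complexes II, III, IV and V and of cytochrome c were followed in mouse quadriceps muscle. Members were chosen by symbol: Sdha to Sdhd, Cyc1, Cycs, and every symbol that begins with Uqcr, with Atp5, or with Cox followed by a digit from 4 to 8. Of 38924 genes in the deposited count files, 19905 were named by the authors' deposited tables of tests. Among those named, 48 carried such a symbol, and 47 had at least 10 counts summed over all libraries. The gene left out for low counts was Cox7b2, with 1 count. Another 2 genes with a matching symbol lay outside the authors' deposited tables and were not taken as members. The 47 members comprised 4 genes of complex II, 9 of complex III, 15 of complex IV, 15 of complex V, the cytochrome c gene Cycs, and 3 genes whose names match but that are not taken as subunits (Atp5s, Atp5sl and Cox7a2l).

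Poly(A) RNA was sequenced from 23 mice of the C57BL/6 background, kept on standard chow and given glucose and exercise tolerance tests now and then. Wild-type (WT) mice were taken at 4, 7 and 24 months (4 libraries at each age). Mice named mNKO, deficient for Nampt in skeletal muscle, were taken at 7 months (4 libraries), and mice named MCK-NamptOE, which overexpress Nampt in skeletal muscle, at 4 months (3 libraries) and 24 months (4 libraries). Nampt makes nicotinamide mononucleotide, the precursor of NAD in the salvage pathway. MCK is the usual abbreviation of muscle creatine kinase. The Cre driver of mNKO, the number of transgenic lines and the sex of the mice are not given in the sources used here. RNA was purified with miRNeasy at 7 months and with Trizol at 4 and 24 months, so the reagent and that age cannot be told apart and no test was made between the 2 sets. Each title names another animal, and libraries are numbered as replicates only to name them.

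Complex II (succinate dehydrogenase) passes electrons from succinate to ubiquinone, complex III (the cytochrome bc1 complex) passes them on to cytochrome c, and complex IV (cytochrome c oxidase) reduces oxygen. The proton gradient built by complexes III and IV drives complex V, the ATP synthase. All subunits of complex II are encoded in the nucleus, whereas complexes III, IV and V each join nuclear subunits to subunits made inside the mitochondrion. Some cytochrome c oxidase subunits have a heart and skeletal muscle isoform (Cox6a2, Cox7a1, Cox8b) and a partner that many tissues make (Cox6a1, Cox7a2, Cox8a).

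Depth was 14900674 to 22755930 counts on genes at 7 months and 2032544 to 3443762 at 4 and 24 months. Levels are counts per 1000000 counts (CPM) after TMM scaling of the libraries, given as mean ± SD with the group sizes above. Nampt was 119 CPM in WT and 18.6 in mNKO at 7 months, and lay between 4107 and 9533 CPM in the MCK-NamptOE libraries against 189 to 253 in WT of the same ages. Summed CPM of 6 muscle fibre markers (Acta1, Ckm, Mylpf, Myh4, Tnnt3, Atp2a1) was at least 84884 in every library. MCK-NamptOE replicate 4 at 24 months stands apart for the members: it was the highest of its group for 41 of the 45 tested there. A member was tested where edgeR's filterByExpr kept it: 46 at 7 months (all but Cox6b2, with 65 counts in all) and 45 at 4 and 24 months (all but Cox6b2 and Cox4i2). Cox4i2 had 395 counts over all 23 libraries, but only 0 to 2 in each library at 4 and 24 months. The test was edgeR's quasi-likelihood test over all 13140 or 9144 genes, with a Benjamini-Hochberg adjusted p below 0.05 as the threshold for a call, and fold changes are log2 with their standard error (SE). Many of these genes have processed pseudogenes of near-identical sequence, and how reads that fit both were counted, or whether strand was used, is not given in the sources used here. In such bulk samples fewer cells of a type and less RNA per cell cannot be told apart.

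In WT muscle at 7 months the most abundant member by CPM was Atp5b, the catalytic beta subunit of ATP synthase, at 1711 CPM, followed by its alpha subunit Atp5a1 at 1491 and by Cox6a2 at 1372 CPM. Per kilobase of transcript, Cox6a2 led with 2017 ± 428 CPM per kb, before the complex III subunit Uqcrb with 1170.4 ± 345 and Cox8b with 1136 ± 324. The ranges of Uqcrb and Cox8b overlapped, while the lowest Cox6a2 library, at 1704 CPM per kb, lay above the highest Cox8b library, at 1458. The partner isoforms were far lower, with 44 ± 11.1 CPM per kb for Cox6a1 and 44.3 ± 8.47 for Cox8a. Cox7a2 reached 206 ± 62 CPM per kb against 703 ± 175 for Cox7a1. Cox4i2, an isoform of subunit 4 best known from lung, was at 2.34 CPM beside 356 CPM for Cox4i1. Cox6b2, known from testis, was at 0.288 CPM beside 395 CPM for Cox6b1.

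At 7 months and with TMM scaling, mNKO muscle had less mRNA of all 3 muscle-type Cox isoforms than WT, and more of the partners Cox6a1 and Cox8a. With libraries scaled by total counts the 2 rises stayed and the 3 muscle-type genes did not pass the test, with Cox7a1 at 0.04. These partners were the only 2 of the 46 tested members that rose, and 12 fell: Sdha in complex II, Uqcrfs1 in complex III, Cycs, 4 genes of complex IV (Cox6a2, Cox7a1, Cox7b, Cox8b), 3 of complex V (Atp5c1, Atp5g1, Atp5j), and Atp5s and Atp5sl. Of all genes tested, 53.1% were called in this comparison, 28.6% higher and 24.5% lower, so the members' share of 30.4% lay below the background. Every tested gene of complexes II and III had a negative fold change, as had 10 of 14 in complex IV and 12 of 15 in complex V (39 of 46 members in all, where 50.7% of all genes were positive). The median log2 fold change was -0.18 in complex II, -0.34 in complex III, -0.16 in complex IV and -0.17 in complex V, with 0.01 over all genes. Complex IV was the most spread, from -0.84 to 1.35, against -0.51 to -0.05 in complex III. Groups did not overlap for 2 members that were higher and 10 that were lower in mNKO, where the background was 27% and 23.1%.

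**Figure D1:**
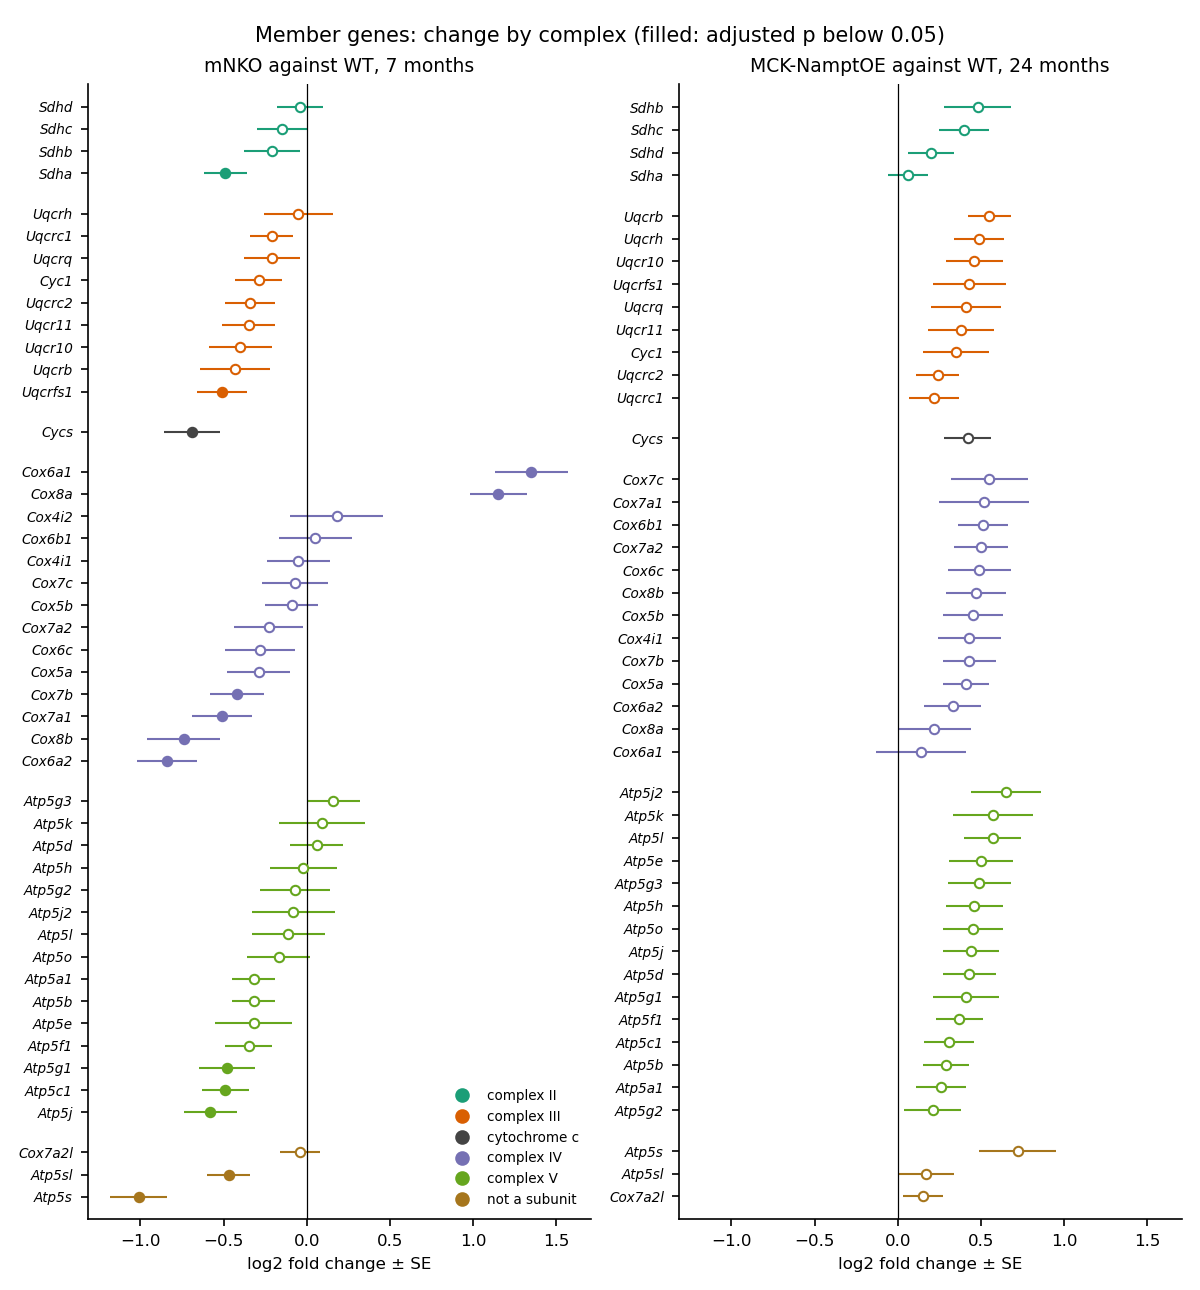
Log2 fold change (x axis, ± SE) of each tested member (y axis, ordered within its complex) for mNKO against WT at 7 months (left) and MCK-NamptOE against WT at 24 months (right), with filled points for an adjusted p below 0.05. On the left Cox6a1 at 1.35 and Cox8a at 1.15 stand to the right of 0 while Cox6a2 at -0.84 and Cox8b at -0.74 stand to the left, and on the right all 45 points are open and positive.

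These directions rest on how libraries are scaled. TMM factors were 0.752 to 0.913 in WT and 1.109 to 1.286 in mNKO, and scaling by total counts moves the median of all genes from 0.01 to 0.54. With total counts 15 members were higher and 1 was lower, where 51.6% and 7.05% of all genes were, with medians of 0.37 (complex II), 0.20 (III), 0.37 (IV) and 0.37 (V). The median over the members was -0.26 (TMM) or 0.28 (total counts), below the median of all genes under both. Without WT replicate 2, which had the smallest TMM factor, it was -0.11, and those of complexes II, IV and V were -0.06, -0.03 and -0.02. As a share of all counts on genes, the members took 1.48 ± 0.113% in WT and 1.73 ± 0.172% in mNKO. The rise of Cox6a1 and Cox8a was called under both scalings, and of the 12 falls only that of Atp5s was.

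Complex II was led by Sdha, the flavoprotein that oxidises succinate. It measured 611, 590.1, 661 and 537 CPM in the WT libraries at 7 months and 445, 416, 477 and 372 in mNKO. The highest mNKO value was below the lowest WT value, and Sdha fell by 0.49 ± 0.13 (SE, log2; edgeR adjusted p = 0.00997), but was at 0.04 with total counts. The iron-sulfur subunit Sdhb was 309.6 CPM in WT and 268 ± 38.6 in mNKO, and the membrane anchors Sdhc and Sdhd had log2 fold changes of -0.15 and -0.04. None of these 3 passed the test, with adjusted p from 0.317 to 0.83.

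In complex III the Rieske iron-sulfur protein Uqcrfs1, which carries electrons to cytochrome c1, was 197, 291, 252 and 204 CPM in WT and 174, 157, 174 and 158 in mNKO. The groups did not overlap, and it fell by 0.51 ± 0.15 (edgeR adjusted p = 0.012), with 0.03 under total counts and an adjusted p of 0.0526 in a fit of all 23 libraries. Uqcrb, the most abundant complex III gene by CPM, had a larger spread: 405, 854, 652 and 593 CPM in WT against 409.6, 504, 425 and 520.3 in mNKO. Its groups overlapped, and its log2 fold change of -0.43 ± 0.21 did not pass (adjusted p = 0.101). The core proteins Uqcrc1 and Uqcrc2 (-0.21 and -0.34), the cytochrome c1 gene Cyc1 (-0.29) and the small subunits Uqcr10, Uqcr11, Uqcrq and Uqcrh (-0.40 to -0.05) were all negative without passing.

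Cycs, the mobile carrier between complexes III and IV, was 589, 1030.0, 850.0 and 754 CPM in WT and 511, 500.4, 519.8 and 473 in mNKO. The mNKO libraries were close together, with an SD of 20.3 CPM, and all lay below WT. The fall of Cycs was 0.69 ± 0.17 (edgeR adjusted p = 0.00564), and -0.14 remained with total counts (adjusted p = 0.406).

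In complex IV the muscle-type gene Cox6a2 was 1246, 1801, 1282 and 1159 CPM in WT and 673, 826, 665 and 893 in mNKO. Its partner Cox6a1 was 29.2, 23, 17.2 and 31.1 CPM in WT and 53.9, 49.6, 67.7 and 85.7 in mNKO. The groups of both genes were apart, in opposite directions. Cox6a2 fell by 0.84 ± 0.18 (edgeR adjusted p = 0.00221) and Cox6a1 rose by 1.35 ± 0.22, or 2.56-fold (adjusted p = 4.30e-04). Subunit 6a is a small regulatory subunit at the periphery of the enzyme.

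The pair of subunit 8 followed the same directions. Cox8b was 258, 525, 471 and 381 CPM in WT and 189, 267, 229.9 and 291 in mNKO, and fell by 0.74 ± 0.22 (edgeR adjusted p = 0.0139), although 1 WT library overlapped the mNKO range. Cox8a was 25.3, 28.4, 17.6 and 26 CPM in WT and 48.9, 46.3, 55.1 and 66.3 in mNKO, with no overlap, and rose by 1.15 ± 0.17, or 2.22-fold (adjusted p = 2.14e-04). With total counts Cox6a2 was at -0.31 (adjusted p = 0.076) and Cox8b at -0.20 (adjusted p = 0.362), while Cox6a1 was at 1.86 and Cox8a at 1.68. In the pair of subunit 7a, Cox7a1 fell by 0.51 ± 0.18 (edgeR adjusted p = 0.0304, but 0.114 in a fit of all 23 libraries) and its partner Cox7a2 was at -0.23 ± 0.21 (adjusted p = 0.369).

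Values of Cox7a1 were 225, 409, 314 and 287 CPM in WT and 194, 217, 218 and 240.5 in mNKO, and those of Cox7a2 were 89, 189, 135 and 131 against 103, 111, 103 and 145. Both genes had their highest WT value in replicate 2 and overlapped between the groups. The call of Cox7a1 held in 3 of the 8 fits that each left out 1 library, as did that of Atp5g1, and that of Cox7b held in 2. The other 11 calls held in all 8. Cox7b, a small subunit with no muscle-type form in this set, was at -0.42 ± 0.16 (edgeR adjusted p = 0.0444). Of the remaining complex IV genes, Cox4i1 (-0.05), Cox5a (-0.29), Cox5b (-0.09), Cox6b1 (0.05), Cox6c (-0.28), Cox7c (-0.07) and Cox4i2 (0.18) did not pass.

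**Figure D2:**
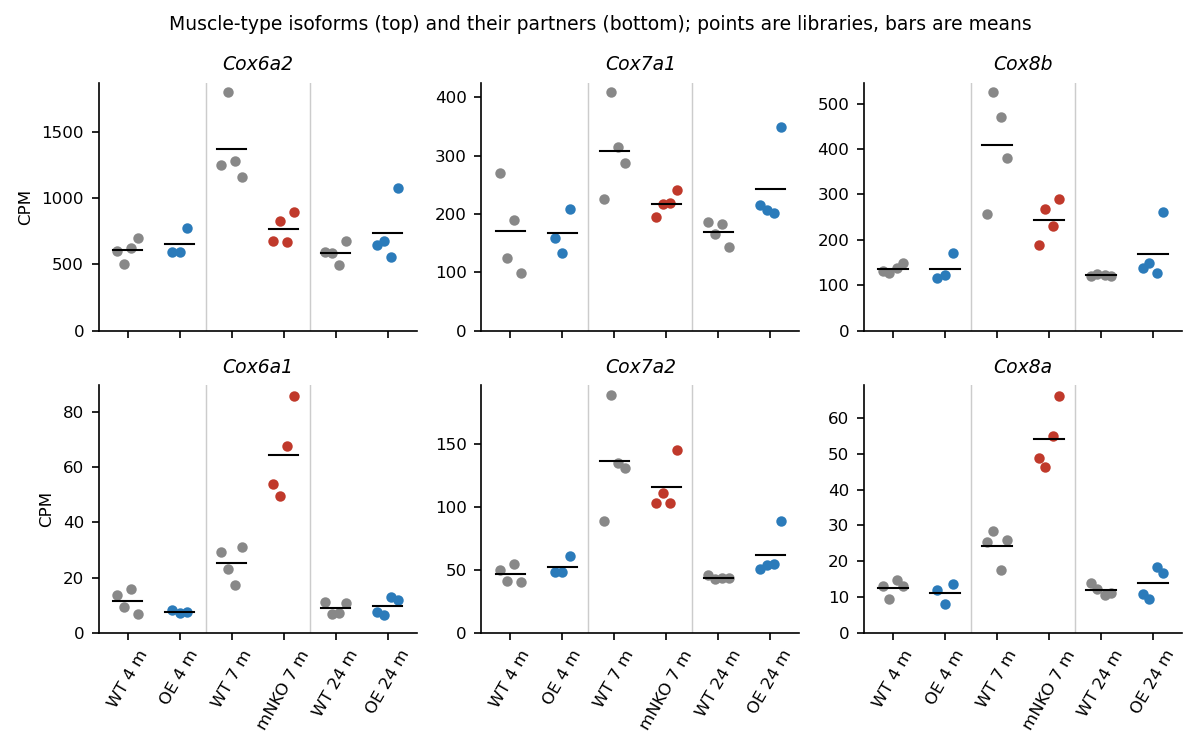
CPM (y axis, from 0) of the muscle-type genes (top row) and their partners (bottom row) in the 6 groups (x axis, OE for MCK-NamptOE, m for months), where each point is a library and each bar a group mean. Cox6a1 and Cox8a are higher in all 4 mNKO libraries (49.6 to 85.7 and 46.3 to 66.3 CPM) than in any WT library at 7 months.

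The ratio of 2 isoforms within a library does not depend on library scaling. The log2 ratio of Cox6a2 to Cox6a1 counts (0.5 added to each) was 5.78 ± 0.55 in WT at 7 months and 3.59 ± 0.34 in mNKO, a ratio 4.56 times lower. That of Cox8b to Cox8a was 4.04 ± 0.58 and 2.17 ± 0.25, 3.66 times lower in mNKO. That of Cox7a1 to Cox7a2 was 1.20 ± 0.10 and 0.92 ± 0.14, 1.21 times lower. All 4 mNKO libraries lay below all 4 WT libraries in each pair. The 2-sided exact permutation test gave p = 0.0286 for each, the smallest value that 4 against 4 libraries allow and 0.143 after adjustment over the 15 comparisons of ratios, so none passed. Per transcript length, the muscle type remained the main form: Cox6a2 made up 97.8 ± 0.81% of its pair in WT and 90.9 ± 1.85% in mNKO, Cox8b 96.0 ± 1.54% and 87.2 ± 1.86%, and Cox7a1 77.5 ± 1.21% and 73.9 ± 1.95%.

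**Figure D3:**
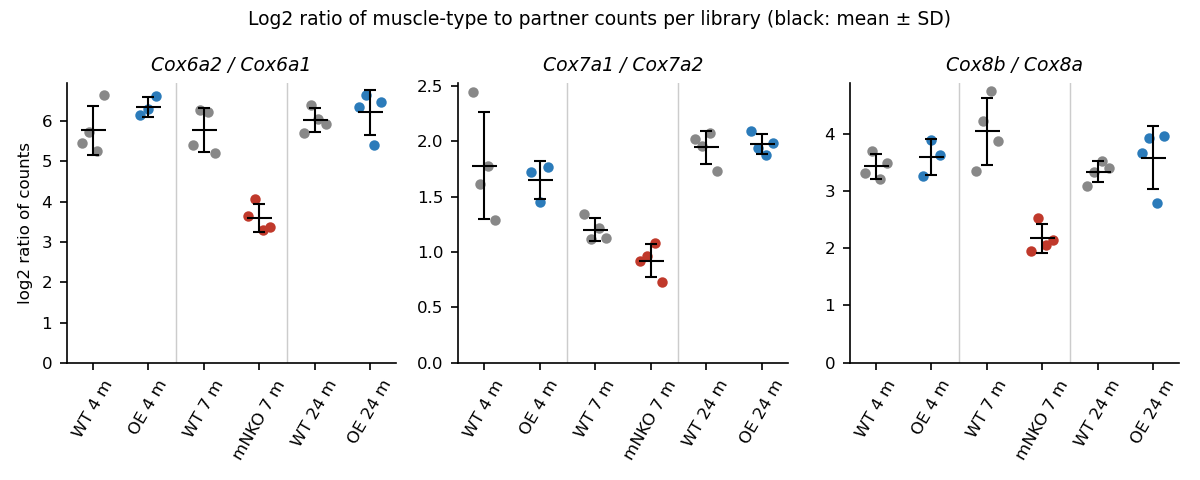
Log2 ratio of muscle-type to partner counts (y axis, from 0) per library in the 6 groups (x axis, OE for MCK-NamptOE, m for months), with the mean ± SD of each group in black. The mNKO points of Cox6a2 over Cox6a1 lie at 3.30 to 4.06 and those of WT at the same age at 5.22 to 6.29.

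The 6 isoform genes lie on 4 chromosomes of build GRCm38 (mm10), on the annotation of GENCODE M21: Cox6a2 at chr7:128205435-128206387 (minus strand), Cox7a1 at chr7:30184144-30186078 (plus), Cox8b at chr7:140898945-140900446 (minus), Cox6a1 at chr5:115345642-115348981 (minus), Cox7a2 at chr9:79755361-79759878 (minus) and Cox8a at chr19:7215153-7217616 (minus). The 250 bases before the RefSeq start are shown for the 2 genes that rose and for 2 muscle-type genes that fell, with motif matches in capitals, so that genes that moved in opposite directions can be compared letter by letter. Windows are chr5:115348959-115349208 (minus) for Cox6a1, chr19:7217617-7217866 (minus) for Cox8a, chr7:140900447-140900696 (minus) for Cox8b and chr7:30183921-30184170 (plus) for Cox7a1, all of GRCm38.p6.
Cox6a1: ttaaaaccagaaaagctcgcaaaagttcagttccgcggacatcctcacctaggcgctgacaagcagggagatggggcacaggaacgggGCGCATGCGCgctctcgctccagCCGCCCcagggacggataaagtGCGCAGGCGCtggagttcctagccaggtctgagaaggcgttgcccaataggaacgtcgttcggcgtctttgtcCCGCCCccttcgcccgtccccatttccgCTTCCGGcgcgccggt
Cox8a: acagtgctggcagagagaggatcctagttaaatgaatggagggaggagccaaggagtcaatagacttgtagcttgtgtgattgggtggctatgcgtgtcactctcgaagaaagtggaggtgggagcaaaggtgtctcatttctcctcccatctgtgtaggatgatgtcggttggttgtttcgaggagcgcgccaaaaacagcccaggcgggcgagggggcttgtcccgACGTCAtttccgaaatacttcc
Cox8b: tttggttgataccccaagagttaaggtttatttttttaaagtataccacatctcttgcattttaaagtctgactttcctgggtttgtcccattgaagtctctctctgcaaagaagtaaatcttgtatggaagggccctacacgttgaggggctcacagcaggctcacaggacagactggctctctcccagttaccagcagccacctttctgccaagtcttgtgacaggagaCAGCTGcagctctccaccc
Cox7a1: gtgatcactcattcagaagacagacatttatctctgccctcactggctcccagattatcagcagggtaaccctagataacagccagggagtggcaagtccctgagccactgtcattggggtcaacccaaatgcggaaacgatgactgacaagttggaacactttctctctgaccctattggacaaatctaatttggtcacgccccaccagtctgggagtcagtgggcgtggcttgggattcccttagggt
The Cox6a1 window held 2 matches to the NRF1 motif (GCGCA, any base, then GCGC), 1 to the ETS motif CCGGAAG of GABP and 2 to the SP1 motif GGGCGG. The Cox8a window held 1 match to the core TGACGT of the cAMP response element, the Cox8b window 1 to the E-box CAGCTG, and the Cox7a1 window none of the motifs searched. No searched motif was found in more than 1 of these 4 windows. Motifs were searched on both strands.

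RefSeq windows were matched for 37 members (41 windows, of 32851 in all). Members without a window were Cox6a2, Cox4i1, Cox4i2, Cox6c, Atp5a1, Cyc1, Sdhc, Uqcrb, Uqcrc2 and Uqcrq. NRF1 and GABP are transcription factors known to act on nuclear respiratory genes, and their motifs were found in 17.1% and 22% of member windows, against 3.74% and 6.91% of all windows. The TGACGT core was found in 14.6% against 6.47%. The ERR motif AAGGTCA (4.88% against 4.08%) and the MEF2 motif (CTA, 4 bases of any kind, then TAG; 2.44% against 3.2%) differed little. The TATA box TATAAA (2.44% against 12.4%), the E-box (4.88% against 13%) and the SP1 motif (26.8% against 32.7%) had lower shares in member windows, from 1, 2 and 11 windows. The shares of NRF1 and GABP came from 7 and 9 member windows. Median GC was 54.8% in member windows and 52.4% in all windows. Differences in motif share were not tested. A letter match is not a bound site. The NRF1 motif was in windows of Atp5c1 and Sdha, which fell, and of Cox6a1, which rose. It was also in windows of Atp5g2, Atp5h, Atp5k and Sdhd, which did not pass the test.

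In complex V 3 of the 15 genes fell. Atp5j, coupling factor 6 in the peripheral stalk, was 238, 408, 361 and 294 CPM in WT and 216, 223, 221 and 209 in mNKO. The groups did not overlap, and it fell by 0.58 ± 0.16 (edgeR adjusted p = 0.0113). Atp5c1, the gamma subunit of the rotating central stalk, was 688, 934, 921 and 751 CPM in WT and 568, 593, 581 and 609 in mNKO, and fell by 0.49 ± 0.14 (adjusted p = 0.0132). The groups of Atp5c1 did not overlap either.

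The genes Atp5g1, Atp5g2 and Atp5g3, encode the same mature subunit c of the membrane ring, and differed in value. Atp5g1 fell by 0.48 ± 0.17 (edgeR adjusted p = 0.0355) from 299 to 215 CPM, while Atp5g2 was at -0.07 and Atp5g3 at 0.16, neither passing. The beta and alpha subunit genes Atp5b and Atp5a1 both had log2 fold changes of -0.32 ± 0.13 with edgeR adjusted p of 0.0595 and 0.0608. Their groups did not overlap. DESeq2 called both lower, as did the authors' deposited table (adjusted p = 0.00396 and 0.00599), whereas edgeR with total counts called neither. Atp5b was 1751, 1688, 1869 and 1534 CPM in WT and 1420.5, 1288, 1414 and 1352 in mNKO. The other complex V genes ranged from -0.35 (Atp5f1) to 0.09 (Atp5k) and none of them passed.

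Of the 3 genes outside the complexes, Atp5s (coupling factor B) was 13.8, 19.6, 15.5 and 13.1 CPM in WT and 6.59, 9.45, 7.1 and 7.78 in mNKO, a fall of 1.01 ± 0.17 (edgeR adjusted p = 4.87e-04) that was still called with total counts, at -0.48 (adjusted p = 0.0176). Atp5sl, an assembly factor of complex I also named Dmac2, fell by 0.47 ± 0.13 (adjusted p = 0.00784). Cox7a2l, which links complexes III and IV into supercomplexes, was at -0.04 ± 0.12 (adjusted p = 0.828) and 179 against 175 CPM.

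Other cell types and fibre types moved with the mNKO group. The 6 muscle fibre markers summed to 188763 to 219033 CPM in WT and 84884 to 134391 in mNKO, with 5 of 6 lower and a median log2 fold change of -0.87 (3 lower and -0.35 with total counts). Summed CPM of 6 fast fibre markers was 132290.1 to 160032 in WT and 49797 to 82579 in mNKO, with all 6 lower, and that of 6 slow fibre markers 2.49 to 11.3 and 173 to 224, with 5 of 6 higher. Of the markers of regenerating fibres and satellite cells 5 of 6 rose (38.5 to 49.6 against 379 to 687 CPM), as did 6 of 6 macrophage markers (46.2 to 188 against 623 to 1103) and 5 of 5 fibroblast markers (757 to 978 against 2597 to 3999). No defining marker of these lists was at 0 in either group. Reads not assigned to a gene also differed without overlap, at 27.2 to 33.5% of a WT file and 21.53 to 26.89% of an mNKO file. The part of all these in the changes of Cox6a1, Cox8a and the muscle-type genes was not tested. Over the 8 libraries, the log2 CPM most like that of Cox6a1 belonged to Igfbp4, Letmd1, Rhod, Ang and Lamb1 (Pearson r 0.984 to 0.989 of 12112 genes compared), and Cox8a ranked 35 with 0.974. For Cox6a2 they were Metap1d, Babam1, Dnph1, 2900008C10Rik and Zfp773 (0.987 to 0.995). All points share the split between the 2 groups.

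The neighbouring respiratory genes gave these counts in mNKO with TMM scaling, where 53.1% of all genes were called. Of 36 nuclear subunits of complex I, 13 fell and 0 rose, with a median of -0.38, whereas total counts gave 0 lower and 6 higher with a median of 0.15. Ndufb4 (281 to 155 CPM) and Ndufa12 (479 to 293) were among those that fell. Of 5 tested mitochondrially encoded subunits of complexes III to V, 4 fell, with a median of -1.38 (total counts also gave 4 lower, with -0.83): mt-Cytb, the electron-carrying core of complex III, went from 43756 to 20422 CPM and mt-Co1, the catalytic core of complex IV, from 45529.7 to 17493. mt-Atp6, mt-Co2 and mt-Co3 were counted at under 4 CPM, so most of the 5 genes in this count were very low beside mt-Cytb and mt-Co1. A list of 28 genes held assembly factors of complexes II to V and the inhibitor Atpif1. Of these, 11 fell and 1 (Atpif1) rose with a median of -0.32, whereas total counts gave 2 lower and 8 higher with 0.22. With TMM, Uqcc1 (complex III) fell by 0.84 and Atpaf1 (complex V) by 1.14, and the inhibitor Atpif1, which blocks ATP hydrolysis by complex V, rose by 1.35. Of 15 tested regulators of mitochondrial biogenesis 4 fell with TMM: Tfb2m by 1.04, Tfam by 0.61, Esrra by 0.40 and Yy1 by 0.37. The median of these regulators was -0.25, whereas total counts gave 1 lower and 6 higher with 0.28.

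The authors' deposited table for mNKO and WT listed all 47 members, with 2 higher and 17 lower at an adjusted p below 0.05, where 47.8% of all genes listed were called. In the authors' deposited table Cox6a1 had a log2 fold change of 1.32 ± 0.23, Cox8a of 1.13 ± 0.19, Cox6a2 of -0.86 ± 0.18 and Cox8b of -0.75 ± 0.23. The member median in the authors' deposited table was -0.25.

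At 24 months and with TMM scaling, every member tested had more mRNA in MCK-NamptOE than in WT on average. The differences were 0.06 (Sdha) to 0.72 (Atp5s) on the log2 scale, but none passed the test over all genes. The medians were 0.30 in complex II, 0.41 in complex III, 0.45 in complex IV and 0.44 in complex V, with 0.00 over all genes, of which 50.3% were positive. With total counts 44 of 45 members were positive, with medians of 0.33 over the members and -0.09 over all genes. By edgeR's quasi-likelihood test 0 of 45 members had an adjusted p below 0.05 (background 0.0109%), with adjusted p from 0.338 (Uqcrb) to 0.951. At an unadjusted p below 0.05 there were 27 members, where 7.34% of all genes were, and DESeq2 called 1 member (Uqcrb). For 22 members every MCK-NamptOE library was above every WT library, where the background was 2.36%. The authors' deposited table for this comparison called 0 of 45 members (0.24% of all genes listed), with a median of 0.38.

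Uqcrb, which binds ubiquinone in complex III, was 281, 288, 302 and 257 CPM in WT and 369.9, 381, 378 and 524 in MCK-NamptOE at 24 months. All 4 MCK-NamptOE libraries were above WT, and replicate 4 was the highest (log2 fold change 0.55 ± 0.13). Cox6b1, which joins the monomers of the oxidase dimer, was 179.8, 150.3, 167 and 150.1 CPM in WT against 204, 191, 206 and 323, again without overlap (0.51 ± 0.15). Cycs was 439, 349, 435 and 353 CPM against 487, 485, 469 and 662, also apart, with 0.42 ± 0.14.

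Atp5b was 1403, 1094, 1135 and 1159.9 CPM in WT and 1384, 1229, 1429 and 1812 in MCK-NamptOE, so its groups overlapped (0.29 ± 0.14). The smallest difference in complex II was that of Sdha, with 577, 535, 562 and 541 CPM against 608, 575, 596 and 535. Sdhb was 185, 137, 163 and 142 CPM against 209, 183, 185 and 298. Among the muscle-type genes Cox8b was 120.2, 124, 123 and 120.3 CPM in WT and 139, 149, 128 and 262 in MCK-NamptOE, with no overlap. Cox6a2 overlapped between the groups, with 491 to 675 and 555 to 1072 CPM.

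**Figure D4:**
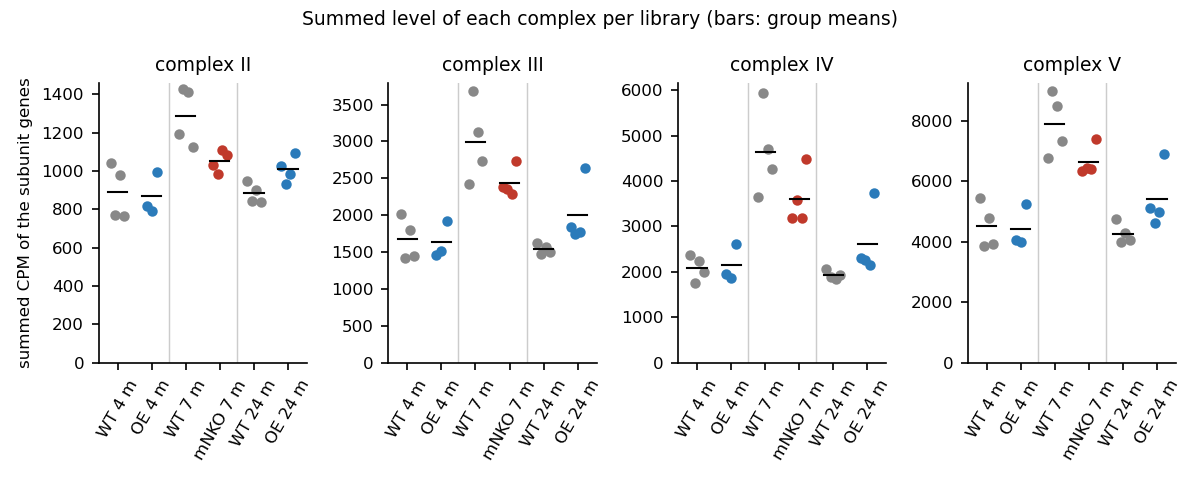
Summed CPM of the subunit genes of complexes II, III, IV and V (y axes, from 0) per library in the 6 groups (x axis, OE for MCK-NamptOE, m for months), where each point is a library and each bar a group mean. At 24 months replicate 4 of MCK-NamptOE lies apart in complexes III (2642 CPM) and IV (3738 CPM), and the other 3 lie above the WT range for complex III (1752 to 1839 against 1475 to 1623) and complex IV (2147 to 2305 against 1855 to 2069.8), while complexes II (929.6 to 1094 against 838 to 947) and V (4633 to 6907 against 3999 to 4737) overlap with WT.

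MCK-NamptOE replicate 4 carried much of this difference. Without it the median over the members was 0.24 in place of 0.43, and 6 members in place of 27 had an unadjusted edgeR p below 0.05. The lowest adjusted p was then 0.976, while the mean of all 45 members remained higher in MCK-NamptOE. The lowest adjusted p also rose without WT replicate 2 (0.902) or WT replicate 4 (0.901), with 21 members at an unadjusted p below 0.05 in each fit. Summed over the members MCK-NamptOE replicate 4 had 15246 CPM and the other 3 had 10228 to 10967, against 8729.8 to 9986 in WT. It also had the most Nampt mRNA, 9533 CPM against 4107 to 5736, the smallest TMM factor of the 15 libraries, 0.921, and the largest share of reads not assigned to a gene, 40.02% against 36.34 to 38.03% in the other 3 of its group. Short transcripts as a whole leaned the same way: genes outside the set with a transcript under 750 bases had a median of 0.24 (265 genes), those of 750 to 1500 bases 0.12, and those of 1500 to 3000 bases 0.02, where the members of these lengths had 0.48 (24 genes), 0.43 (9) and 0.29 (11). Slow fibre markers summed to 2.17 to 193 CPM in WT and 167 to 703 in MCK-NamptOE, with 6 of 6 positive and none called, and the macrophage and fibroblast sums overlapped between the groups. The part of these in the members' difference was not tested. Nuclear complex I genes gave 36 of 36 positive values with a median of 0.40, and regulators of mitochondrial biogenesis 12 of 15 with a median of 0.15, 0 called in both.

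At 4 months the members gave no such difference. In MCK-NamptOE against WT, 0 of 45 passed edgeR's test (background 0.0109%) and 0 had an unadjusted p below 0.05 (4.82% of all genes), and DESeq2 called 0. There were 23 positive and 22 negative values (48.5% of all genes were positive) with a median of 0.00, and the complexes lay between -0.04 and 0.02. Uqcrb was 336 to 396 CPM in WT and 312 to 382 in MCK-NamptOE, and Cox6b1 159.8 to 217 and 164 to 209. Cox6a2 was 598, 502, 622 and 700.0 CPM in WT and 596, 589 and 774 in MCK-NamptOE. All 3 genes overlapped between the groups. The authors' deposited table called 0 of 47 members here (0.0202% of all genes listed), with a median of 0.02.

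Whether the effect of MCK-NamptOE differed between 24 and 4 months was tested as an interaction. By edgeR 0 of 45 members passed (background 0%) and 7 had an unadjusted p below 0.05 (5.45% of all genes), with the lowest adjusted p of 0.696 for Uqcrb. DESeq2 called 0. The difference was positive for 44 of 45 members, with a median of 0.40 and 0.01 over all genes. With total counts it was positive for 41, with medians of 0.25 over the members and -0.12 over all genes, and complex II had 2 positive and 2 negative values. The 7 members with an unadjusted p below 0.05 became 2 without MCK-NamptOE replicate 4 at 24 months or without MCK-NamptOE replicate 1 or 2 at 4 months. They became 3 without WT replicate 1 at 4 months or WT replicate 2 at 24 months, and 4 without WT replicate 4 at 24 months. They became 11 without MCK-NamptOE replicate 2 at 24 months, 12 without WT replicate 4 at 4 months and 22 without MCK-NamptOE replicate 3 at 4 months.

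With age, WT muscle at 24 against 4 months had 0 of 45 members called by edgeR (background 0.153%) and by DESeq2, and 1 (Uqcrb) with an unadjusted p below 0.05, where 8.54% of all genes were. The median was -0.10, with 6 positive and 39 negative values (50.5% of all genes were positive), but 0.01 with total counts, which move the median of all genes from 0.00 to 0.11. In complex IV all 13 were negative, with a median of -0.15, and 7 of 13 with total counts. In MCK-NamptOE at 24 against 4 months, 0 of 45 were called by edgeR (background 0.733%) and by DESeq2, and 9 had an unadjusted p below 0.05 (11% of all genes). There, 44 were positive (52.5% of all genes) with a median of 0.31, or 43 with 0.28 under total counts. Without replicate 4 at 24 months the median was 0.12 and 0 had an unadjusted p below 0.05. That count was 1 without replicate 1 or replicate 2 at 4 months, and 24 without replicate 3 at 4 months. This comparison shares the 24-month MCK-NamptOE libraries with the one against WT, so the 2 are not independent. Slow fibre markers in MCK-NamptOE summed to 2.54 to 31.3 CPM at 4 months and 167 to 703 at 24 months, with 6 of 6 positive and none called. Of 3 endothelial markers 2 were called lower at 24 months, as was 1 of 5 fibroblast markers. The part of these in the members' difference with age was not tested.

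The isoform ratios of the other 4 comparisons stayed within the spread of the libraries except in 1 case. At 4 and 24 months the log2 ratio of Cox6a2 to Cox6a1 was 5.77 ± 0.61 (WT, 4 months), 6.36 ± 0.25 (MCK-NamptOE, 4 months), 6.03 ± 0.29 (WT, 24 months) and 6.22 ± 0.55 (MCK-NamptOE, 24 months). For Cox8b to Cox8a the same groups had 3.43 ± 0.22, 3.59 ± 0.31, 3.33 ± 0.18 and 3.58 ± 0.55. For Cox7a1 to Cox7a2 they had 1.78 ± 0.48, 1.65 ± 0.17, 1.94 ± 0.15 and 1.97 ± 0.09. The MCK-NamptOE libraries at 24 months lay above those at 4 months for Cox7a1 to Cox7a2, by 0.32 ± 0.11 (2-sided exact permutation p = 0.0571, the smallest that 4 against 3 allow, 0.214 adjusted). The other 11 comparisons gave exact permutation p from 0.229 to 0.971. Cox6a1 and Cox8a had group means of 7.7 to 13.9 CPM in this set.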

How the data were processed

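For each of 23 libraries the authors deposited raw counts per gene, along with 5 tables of tests. The tools named in the submitters' processing notes are cutadapt (1.4.2), TopHat2, HTSeq, DESeq and DESeq2, on build mm10, with no order or settings in the sources used here. Per the file headers, the authors' deposited tables give each gene a mean normalised count, a fold change in log2 and its SE, a test score, and p-values before and after adjustment. Symbols were taken from them. The members, gene lists and tests were chosen with earlier results of these data known.

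Reads not assigned to a gene (21.53 to 40.02% of a file's total) were left out. The 8 libraries at 7 months and the 15 at 4 and 24 months were fitted apart with edgeR 4.0.16 in R 4.3.3 (filterByExpr, TMM, robust quasi-likelihood F test, 1 mean per group). The filter kept 13140 genes in the first set (biological coefficient of variation 22.4%) and 9144 in the second (16%). On simulated data the test recovered 57% of 2-fold and 11% of 1.5-fold changes among 13140 genes for mNKO against WT, and 78% and 20% among 9144 genes for MCK-NamptOE against WT at 4 months. The simulation changed only a small part of the genes, whereas 53.1% were called in the real data of mNKO against WT. Its recovery therefore does not carry over to that comparison. The p-values reflect spread between individual mice. CPM per kb used the median transcript length of a gene's GENCODE M21 annotation. Promoter windows came from RefSeq (GRCm38.p6). Motifs and classes of transcript length were added after values were seen. Ratios were compared by exact permutation over libraries. Named with values were all members called in any comparison, the 6 isoform genes and other Cox isoforms, the 2 members of each complex with the highest mean CPM, and up to 4 genes of each list of other respiratory genes. Further members were named to account for the rest. Alternatives were DESeq2 1.42.0, RLE and total-count scaling, no filter, other sets of libraries in the fit, 0 or 2 added to counts in ratios, and leaving out each library.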

Additional observations from a re-analysis of the deposited data

Results flagged for a closer look

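In groups of 4 libraries, a value was listed where its gap to the nearest library took up more of the group's range than Dixon's 95% limit allows. Chance alone marks about 1 in 20 independent groups, and 9 of 75 were marked among the sums and isoform genes. These groups share libraries and genes, so marks come together and that rate is no yardstick for their number. MCK-NamptOE replicate 4 at 24 months accounted for 7 of the 9 marks. Its summed CPM was 2642 in complex III (others 1752 to 1839), 3738 in complex IV (2147 to 2305) and 15246 over all members (10228 to 10967), and Cycs was 662 CPM (469 to 487). Among the isoform genes, Cox7a1 was 349 CPM in this library (201 to 215), Cox7a2 was 88.5 (50.3 to 54.4) and Cox8b was 262 (128 to 149). The muscle-type and the partner form of subunit 7a were thus both at their highest in the same mouse. MCK-NamptOE at 4 months, with 3 libraries, was not screened. There replicate 3 had 11532 summed CPM over all members, and the others had 8916 and 8742.

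In mNKO at 7 months, replicate 4 had 7385 summed CPM in complex V (others 6337 to 6448) and 16389 over all members (13631 to 14075). Gene by gene, 32 of 231 groups, which again share libraries, were marked, and 21 of these marks were highs of MCK-NamptOE replicate 4 at 24 months. The cause was not tested.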

How the results depend on the processing

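For mNKO against WT, total-count scaling gave 15 members higher and 1 lower, with medians of 0.37 (complex II), 0.20 (III), 0.37 (IV), 0.37 (V) and 0.28 (all members), and turned the sign of Sdha (0.04), Uqcrfs1 (0.03), Cox7a1 (0.04), Cox7b (0.12), Atp5c1 (0.05), Atp5g1 (0.06) and Atp5sl (0.06), none of which then passed. The median of all genes moved with them, from 0.01 to 0.54. DESeq2, RLE scaling and no filter kept the counts within 1.5 times. A fit of all 23 libraries left 8 of the 12 lower calls, without Atp5g1, Cox7a1, Cox7b and Uqcrfs1. Leaving out 1 library gave 2 higher and 9 to 15 lower members. For MCK-NamptOE against WT at 24 months, DESeq2 called 1 member (Uqcrb) and the fit with no filter 4 (Atp5j2, Atp5l, Cox7c, Uqcrb), all higher. For MCK-NamptOE at 24 against 4 months, no filter called 1 (Cox7a1). The cause was not tested.

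Leaving out 1 library turned the sign of differences in ratio that had not passed: Cox6a2 to Cox6a1 (-0.28 to 0.13) and Cox8b to Cox8a (-0.18 to 0.25) for MCK-NamptOE at 24 against 4 months, and Cox7a1 to Cox7a2 for MCK-NamptOE against WT at 4 months (-0.29 to 0.09) and 24 months (-0.05 to 0.07). For mNKO the ranges were -2.38 to -2.02 (Cox6a2), -2.10 to -1.64 (Cox8b) and -0.33 to -0.21 (Cox7a1). No paired analysis was possible because the titles carry animal numbers only and replicates were numbered in accession order. At 4 and 24 months Cox4i2 and Cox6b2 had too few counts to be tested.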

Other observations

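Over the 15 libraries at 4 and 24 months, Chchd10 (Pearson r 0.912) and Cox8b (0.896) were among the 5 genes whose log2 CPM was most like that of Cox6a2. For Cox6a1 the 5 were Lgmn (0.813), Ctss (0.809), Bcas2, Mfap5 and Carhsp1. Lgmn and Ctss encode lysosomal proteases. Cox6a1 had 13 to 37 counts in a library of this set, so its correlations rest on low counts. These are descriptions over libraries that share depth, reagent and groups.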
